A study of Mus musculus with 24 samples.

Results

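The miRNAs mmu-miR-1, mmu-miR-133a, mmu-miR-133b, mmu-miR-206 and mmu-miR-208a, known for their expression in striated muscle, were followed through all 24 samples of a mouse mammary tumor model. They were chosen by name, from the probe names of the panel, and are 5 of the 566 mouse miRNAs that the nCounter miRNA assay measured. JygMC(A) is a line from a spontaneous mouse mammary carcinoma, and the tumors came from JygMC(A) cells carrying GFP and luciferase reporters (JygMC(A)-GFP/Luc) that were injected into the mammary fat pad of Balb/C nude mice, which lack a thymus and therefore most T cells. Laser capture gave carcinoma areas (n = 5) and spindle-shaped, EMT-like areas (n = 7) of primary tumors (PT), lung metastases (n = 4), normal mammary gland (NMG, n = 2) and normal lung parenchyma (n = 2) of BalbC nude mice. The same cells were also grown as a monolayer (n = 2) and as 3D-spheres of the third passage on low-adherence plates (n = 2). The mice were females of 6 to 9 weeks. All tumor and culture samples derive from this 1 line. Several mice gave tumor samples of more than 1 kind, and replicate 1 of carcinoma, EMT-like areas and lung metastasis carries the names of 3 mice and counts as 1 sample.

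Striated muscle miRNAs are transcribed together with the genes that build the contractile fiber. miR-1 and miR-133a are processed from shared precursors in heart and skeletal muscle, where miR-1 favors differentiation and miR-133a acts on growth of the muscle cell. miR-206 and miR-133b form a second such pair, miR-206 is mainly a skeletal muscle miRNA that shares its seed with miR-1, and miR-133b is nearly identical to miR-133a in sequence, so that cross-detection by their probes cannot be told apart from expression here. miR-208a and its relative miR-208b are encoded inside the cardiac myosin heavy chain genes and are known as miRNAs of heart muscle.

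Mature sequences of 3 of the 5 miRNAs, with that of mmu-miR-208b, were read from the RefSeq table (GRCm38.p6) and are shown because the results separate the miR-206 and miR-133b pair from the miR-208 pair. Capitals mark the seed, bases 2 to 8 from the 5′ end, which directs target recognition, and the arms are those ending in -3p.
mmu-miR-206: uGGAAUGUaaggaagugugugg
mmu-miR-133b: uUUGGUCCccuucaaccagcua
mmu-miR-208a: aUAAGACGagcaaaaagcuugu
mmu-miR-208b: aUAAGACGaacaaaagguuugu
The hairpin of miR-206 lies at chr1:20679010-20679082 and that of miR-133b at chr1:20682769-20682887, both on the plus strand, 3686 bases apart and inside the span of the long noncoding RNA gene Lincmd1. Their seeds differ. The hairpins of miR-208a (chr14:54949060-54949142) and miR-208b (chr14:54975700-54975776) lie on the minus strand inside the spans of Myh6 and Myh7, the alpha and beta cardiac myosin heavy chain genes. miR-208a and miR-208b have the same seed and are identical at 19 of 22 bases, the differences being G10A, A16G and C18U (miR-208a base, position from the 5′ end, miR-208b base).

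Each deposited value is a probe count less the lane's mean over 6 negative control probes, so values around 0 are background. A miRNA was taken as detected where its value exceeded mean plus 2 SD of those controls, a limit between 4 and 21.4 counts. Depth differed between samples: the sum of mouse miRNA values was 24418 to 44953 in the cultures, 61497 to 183539 in the tumor samples, 525225 to 589588 in 3 of the normal samples and 2334960 in normal lung replicate 2. Values were therefore divided by a scale per lane from the trimmed mean of M-values (TMM), giving the normalized value, and log2(normalized value + 1) was tested with limma over 583 probes. The spread of each probe was pooled over all 7 groups. Small p-values for NMG and normal lung (n = 2 each) thus lean on the spread of the other groups, often at the floor of 0. Other scales moved the median of all probes in a comparison by -1.72 to 1.05 on the log2 scale, so calls that a scale added or removed are given with each comparison.

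Detection of the 5 miRNAs was compared between the kinds of sample, which also differed in detection as a whole. Of all mouse miRNAs, 257 to 368 were above the limit in normal samples, 135 to 258 in tumor samples and 104 to 126 in cultures. mmu-miR-1 was above the limit in 4 of 4 normal samples and in none of the 16 tumor and 4 culture samples. mmu-miR-208a was above it in 3 of 4 normal samples and nowhere else. mmu-miR-133a was above it in 4 normal and 6 tumor samples, mmu-miR-133b in 2 normal, 2 tumor and 1 culture sample, and mmu-miR-206 in 3 normal, 10 tumor and all 4 culture samples. Of the other muscle-linked miRNAs of the panel, mmu-miR-208b was above the limit in both normal lungs and in EMT-like replicate 6, and mmu-miR-499, encoded in a further myosin gene, in none of 24 samples. Low values in lanes with a low sum of miRNA values are enlarged by the scale, so that miR-133a at 9 to 15 counts in the cultures, all under the limit, became normalized values of 14.0 to 30.6.

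**Figure D1:**
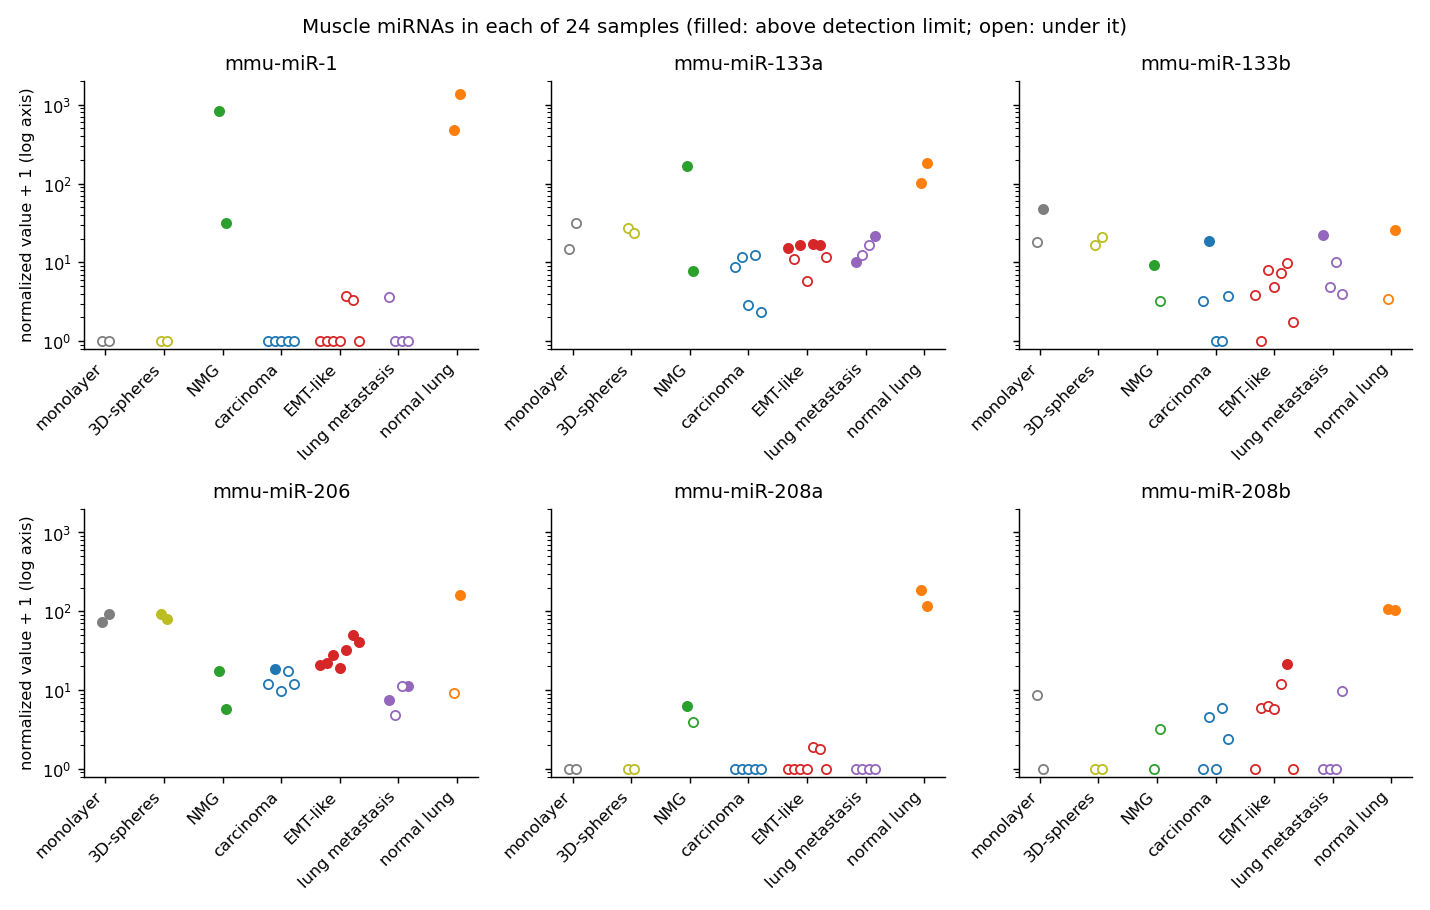
Normalized value + 1 (log axis) of the 5 miRNAs and of mmu-miR-208b in every sample, by group, with filled points above and open points under the detection limit of the lane. miR-1 and miR-208a have filled points in normal tissue only, whereas miR-206 is filled in all cultures and all 7 EMT-like samples.

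miR-1 and miR-133a, the pair of heart and skeletal muscle, were unevenly spread over the normal samples. The deposited values of miR-1 were 2024 and 83 in NMG replicates 1 and 2, and 766 and 7647 in normal lung replicates 1 and 2. Those of miR-133a were 408 and 18 in NMG, and 161 and 1018 in normal lung. Both were thus high in NMG replicate 1 and low in NMG replicate 2, by 24.4-fold for miR-1 and 22.7-fold for miR-133a in deposited values. Across 393 mouse miRNAs detected in NMG, the median difference between these replicates was 0.13 on the log2 scale of normalized values, and miR-1 (4.71) and miR-133a (4.46) ranked first and second. In normal lung, replicate 2 held 9.98 times the deposited value of replicate 1 for miR-1 and 6.32 times for miR-133a. After scaling, this was a log2 difference of -1.51 for miR-1 and -0.85 for miR-133a (replicate 1 minus replicate 2), against a median of -0.09 over 376 miRNAs.

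miR-206 and miR-133b, the skeletal muscle pair, differed more between the 2 normal lungs than between the NMG samples. The deposited value of miR-206 was 13 in normal lung replicate 1, under the limit of 14.8, and 909 in replicate 2. That of miR-133b was 4, under the same limit, and 141. The normalized log2 difference between the lungs was -4.16 for miR-206, the second lowest of 376 miRNAs, and -2.90 for miR-133b, the 17th lowest. In NMG the same miRNAs had small values, 40 and 13 for miR-206 and 20 and 6 for miR-133b, and ranked 26th and 28th of 393 by their excess in replicate 1.

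miR-208a was split by tissue and not by replicate. Its deposited values were 299 and 652 in normal lung and 13 and 8 in NMG, of which only the 13 exceeded its limit. After scaling, normal lung held 185 and 116, a log2 difference of 0.67 between replicates. miR-208b, which was not among the 5, had 171 and 577 in normal lung and -3 and 6 in NMG, with normalized values of 106 and 102 in lung. Both miR-208 probes therefore gave similar normalized values in both lungs, including the lung in which miR-206 was not detected. miR-208a and miR-208b are identical at 19 of 22 bases, so cross-detection by their probes cannot be told apart from expression here.

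**Figure D2:**
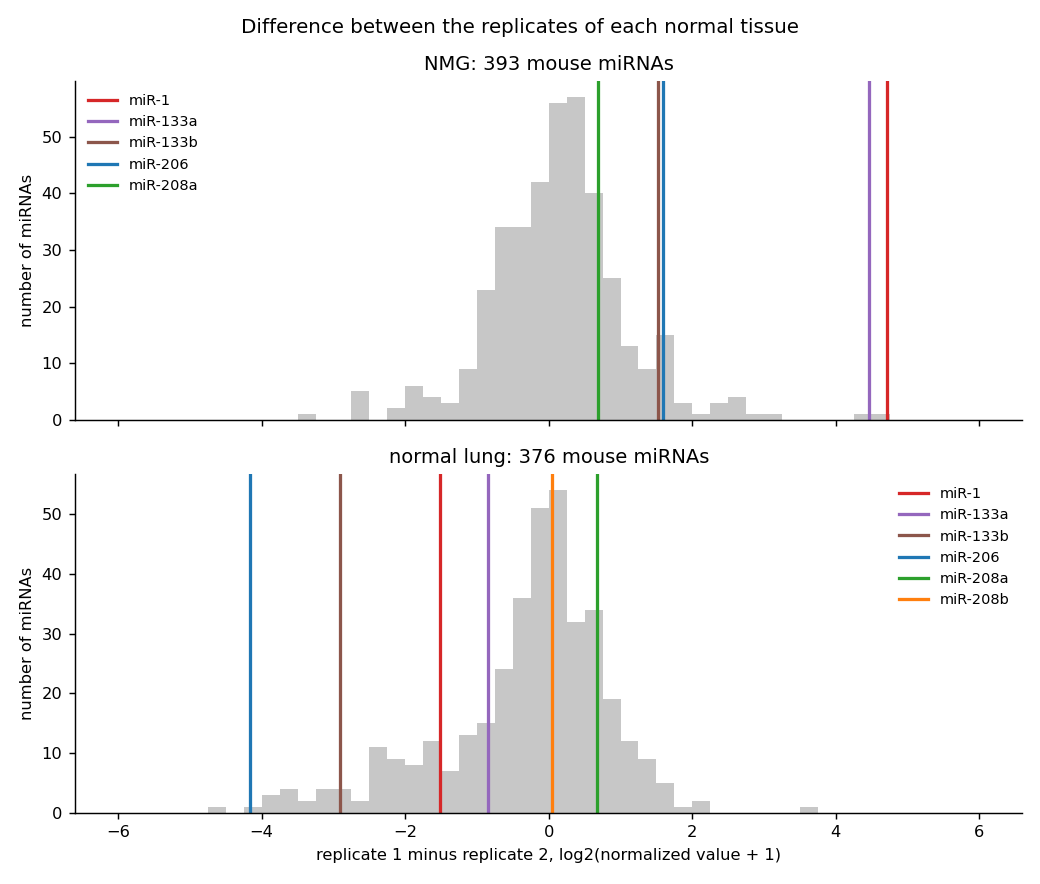
Number of mouse miRNAs (y axis) by their difference between replicate 1 and replicate 2 of NMG (393 miRNAs) and of normal lung (376 miRNAs) on the log2(normalized value + 1) scale (x axis), with lines at the muscle miRNAs. miR-1 and miR-133a stand at the right end for NMG, miR-206 near the left end for normal lung, and miR-208a near the middle in both.

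Markers of other cell types were examined as lists chosen with earlier results of these data known. In NMG replicates 1 and 2, the summed normalized values were 6039 and 7591 for smooth muscle (miR-143 and miR-145), 9125 and 8645 for mesenchymal cells, 1589 and 1679 for adipose-linked miRNAs, 8118 and 8509 for erythroid, 17649 and 10971 for endothelial and 5720 and 2628 for leukocyte miRNAs. None of these lists differed by as much as miR-1 or miR-133a. In normal lung replicates 1 and 2 they were 13953 and 9932 for smooth muscle, 4459 and 4617 for mesenchymal, 918 and 975 for adipose-linked, 49121 and 55994 for erythroid, 67772 and 70141 for endothelial and 4834 and 6181 for leukocyte miRNAs. The epithelial list gave 2925 and 4061 in NMG and 5068 and 6063 in normal lung. Within it, mmu-miR-205 (57.6 and 898) and mmu-miR-203 (110 and 745), known from basal and squamous epithelium, were higher in normal lung replicate 2. The other members differed less or went the other way. These were mmu-miR-200a (1090 and 1118), mmu-miR-429 (787 and 906), mmu-miR-141 (527 and 512), mmu-miR-200b (1440 and 1306) and mmu-miR-200c (1057 and 578). The lung-enriched list gave 1012 and 1106 in normal lung against 471 and 353 in NMG and 5.74 to 35.0 in the tumor samples, metastases included. The muscle content of the captured areas is not given in the sources used here, and its part in these differences was not tested. In samples of whole tissue areas, fewer muscle cells and less of a miRNA per cell cannot be told apart.

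Normal lung and NMG were then compared. miR-208a was higher in normal lung, with 150 ± 49.1 (SD, n = 2) against 4.16 ± 1.69 (SD, n = 2), 4.88 higher on the log2 scale (standard error 0.41) with an adjusted p of 6.79e-09 (limma), and it was the only one of the 5 called. Of all probes tested, 10.5% were called higher in normal lung, and their median log2 fold change was 0.33. miR-208b was at least 22.4-fold higher (adjusted p = 0.00736 with limma), with both NMG samples under the limit. Here and below, a fold given as at least is a bound on the TMM scale only. It was not computed on the other scales, where it can be smaller. The log2 fold changes of miR-1 (2.30, adjusted p = 0.184), miR-133a (1.91, adjusted p = 0.251) and miR-206 (1.93, adjusted p = 0.145) did not pass with limma, and their ranges overlapped. All 3 passed when values were scaled by the 4 mRNA control probes (adjusted p of 0.0188, 0.0288 and 0.0288 with limma). Leaving out NMG replicate 1 added the calls of miR-1 and miR-133a, and leaving out normal lung replicate 1 that of miR-206.

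The labels give replicate 1 of normal lung and of NMG a shared number, and likewise replicate 2, without stating that a number is an animal. Within replicate 1, the difference of normal lung minus NMG was -0.81 for miR-1, -0.75 for miR-133a, -1.41 for miR-133b and -0.95 for miR-206, on the log2 scale. Within replicate 2 it was 5.42, 4.56, 3.01 and 4.80. For miR-208a it was 4.87 and 4.88. On the TMM scale the direction was therefore opposite in the 2 pairs for 4 of the 5 miRNAs. Of these, miR-133b and miR-206 were under the limit in normal lung replicate 1. By the mRNA control probes, replicate 1 of normal lung exceeded NMG for miR-1 (1282 against 1019), miR-133a (270 against 205) and miR-206 (21.8 against 20.1). Only miR-133b (6.70 against 10.1) stayed opposite. The share of all probes with opposite directions was not computed.

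Carcinoma areas were compared with NMG to ask which miRNAs differ between tumor and normal gland. miR-1, miR-133a and miR-208a were lower in carcinoma and miR-133b and miR-206 did not pass the test. With limma, 3 of the 5 were called lower, beside 23.8% of all probes tested, whose median log2 fold change was -0.68. For miR-1, the carcinoma samples held -4, -3, -13, -5 and -2 counts, all under their limits, against 2024 and 83 in NMG. It was at least 8.98-fold lower on the TMM scale (limit of each carcinoma lane against the NMG values, adjusted p = 2.5e-06 with limma). Without NMG replicate 1 the bound was 1.75-fold and the fitted log2 fold change -4.99 in place of -7.35, and the call remained (adjusted p = 0.000237 with limma).

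miR-133a in carcinoma lay at 7, 9, 2, 9 and 1 counts, all under the limit, against 408 and 18 in NMG. On the log2 scale carcinoma was -2.56 from NMG (standard error 0.84) with an adjusted p of 0.0259 (limma), with at least 1.99-fold lower values by the limit, yet the normalized ranges overlapped because NMG replicate 2 held 6.68 and carcinoma up to 11.2. This call rested on NMG replicate 1, without which there was no bound and the log2 fold change was -0.33 (adjusted p = 0.957 with limma). It was also lost without carcinoma replicate 3 (adjusted p = 0.0539) or carcinoma replicate 5 (adjusted p = 0.0561), with limma, and with scaling by the miRNA total (adjusted p = 0.0812) or by the 100 most abundant miRNAs (adjusted p = 0.237), and with the fit on these groups alone (-2.56, adjusted p = 0.218).

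miR-208a was -11, -4, -8, -11 and -5 counts in carcinoma. The difference from 13 and 8 in NMG passed (adjusted p = 1.95e-05 with limma), but no fold change is given because the NMG values lie at the limit. With a higher background (mean plus 2 SD of these controls) subtracted, the log2 fold change became 0.05, so that the call is one between values near background.

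EMT-like areas gave a similar list against NMG. This comparison shares the NMG samples with the previous one, so the pair of results is not independent. miR-1 ranged from -11 to 3 counts over the 7 EMT-like samples, with a median of -3, all under the limit, and was at least 13.2-fold lower than in NMG (adjusted p = 4.99e-06 with limma). Without NMG replicate 1 the bound was 2.58-fold and the fitted log2 fold change -4.47 in place of -6.83 (adjusted p = 0.000604 with limma). miR-208a ranged from -5 to 1 counts with a median of -2 and was called lower (adjusted p = 4.42e-05 with limma), with the same limit as for carcinoma. Calls were thus made for 2 of the 5, beside 20.4% of all probes called lower and a median of -0.30 over all probes. miR-133a was 5 to 20 counts with a median of 15, above the limit in 4 of 7 samples, and its log2 fold change of -1.50 did not pass (adjusted p = 0.202 with limma). It passed with no scaling (-2.63, adjusted p = 0.0173), with scaling by the mRNA control probes (-2.45, adjusted p = 0.0321) and without NMG replicate 2 (-3.73, adjusted p = 0.002), with limma.

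miR-206 went the other way in EMT-like areas. Its normalized value was 29.4 ± 11.2 (SD, n = 7) against 10.7 ± 8.24 (SD, n = 2) in NMG, and every EMT-like sample (18.3 or more) lay above both NMG samples (16.5 and 4.83). Ranges apart in this direction were found for 9.43% of all probes, and the deposited values overlapped (19 to 61 against 40 and 13). The log2 fold change of 1.51 (standard error 0.69) did not pass (adjusted p = 0.117 with limma), and passed when values were scaled by the 100 most abundant miRNAs (2.51, adjusted p = 0.0109) or by the miRNA total (2.09, adjusted p = 0.0239), with limma. With no scaling it was 0.43 (adjusted p = 0.780), with the mRNA control probes 0.57 (adjusted p = 0.693) and without NMG replicate 2 it was 0.72 (adjusted p = 0.786), with limma.

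Lung metastases were compared with normal lung parenchyma. Muscle miRNAs were low in metastases, with 4 of the 5 called lower beside 42.2% of all probes, whose median log2 fold change was -0.90. miR-1 was 2, -1, -8 and -6 counts in the metastases, all under the limit, and at least 52.6-fold lower than in normal lung (adjusted p = 6.37e-08 with limma), or 31.1-fold without normal lung replicate 2 and 89.0-fold without replicate 1. miR-208a was -4, -8, -10 and -3 counts and at least 9.66-fold lower (adjusted p = 4.09e-13 with limma). Its relative miR-208b was at least 6.89-fold lower (adjusted p = 0.000579 with limma). These bounds hold on the TMM scale only. For these 3, the metastases and the normal lungs did not overlap, which was the case for 37.9% of all probes in this direction.

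miR-133a in metastases was 7, 6, 12 and 14 counts, above the limit in 2 of 4, against 161 and 1018 in normal lung. The difference of -3.22 on the log2 scale (standard error 0.87) had an adjusted p of 0.00507 (limma), a call that was lost with scaling by the 100 most abundant miRNAs (adjusted p = 0.245) or the miRNA total (adjusted p = 0.118) and without normal lung replicate 2 (adjusted p = 0.0926), with limma. miR-206 was 5, 2, 8 and 7 counts against 13 and 909. The call for miR-206 (-2.22, adjusted p = 0.0164 with limma) rested on normal lung replicate 2, without which the value was -0.14 (adjusted p = 1 with limma), and was also lost with scaling by the 100 most abundant miRNAs (adjusted p = 0.590) or the total (adjusted p = 0.357). miR-133b was 16, 2, 7 and 2 counts and did not pass, with a log2 fold change of -0.25 (adjusted p = 0.893 with limma).

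On the TMM scale, other cell type lists were also lower in tumor than in normal samples. Summed normalized values in the 4 normal samples against the 16 tumor samples were 6039 to 13953 against 688 to 1689 for smooth muscle, 10971 to 70141 against 819 to 3114 for endothelial, 8118 to 55994 against 83.7 to 533 for erythroid, 4459 to 9125 against 230 to 2844 for mesenchymal and 918 or more against at most 285 for adipose-linked miRNAs. For leukocyte miRNAs they were 2628 to 6181 against 572 to 1634. On this scale the normal and tumor samples did not overlap in any of these 6 lists. With scaling by the most abundant miRNAs, they overlapped in the leukocyte, mesenchymal and adipose-linked lists. With scaling by the miRNA total, they overlapped in the leukocyte and mesenchymal lists. The part of tissue makeup in the muscle miRNA differences was not tested. Of the striated muscle miRNAs, miR-1 and miR-208a were under the limit in all 16 tumor samples, miR-206 was above it in 10, miR-133a in 6, miR-133b in 2 and miR-208b in 1, and miR-499 was under it in normal tissue too. In the epithelial list, the normal samples (2925 to 6063) and the carcinoma samples (930 to 5385) overlapped.

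**Figure D3:**
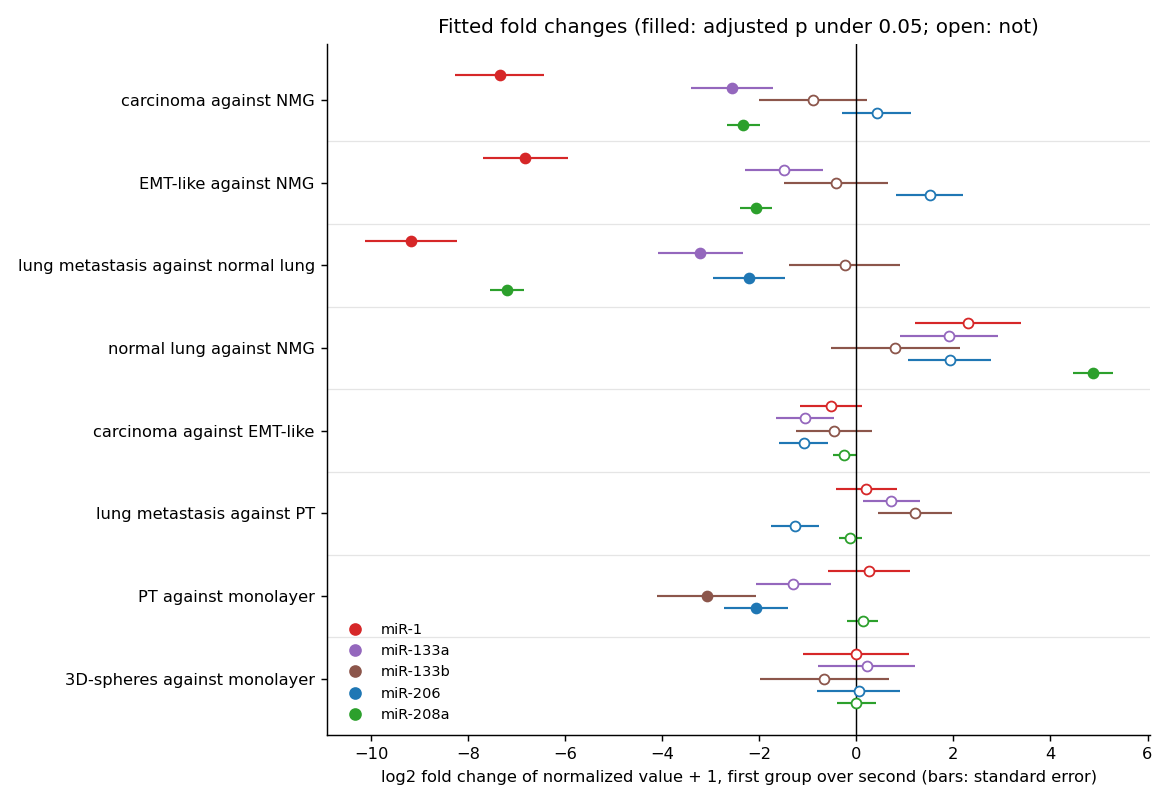
Fitted log2 fold changes of normalized value + 1 (x axis, first group over second) with standard errors for the 5 miRNAs in 8 comparisons, filled where the adjusted p was under 0.05. Filled points lie to the left for miR-1 and miR-208a wherever tumor was set against normal tissue, and no point is filled for carcinoma against EMT-like areas, lung metastasis against PT or 3D-spheres against the monolayer; where a whole group is under the limit the fitted size depends on the added 1.

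Within the primary tumors, carcinoma and EMT-like areas were compared to follow the change from epithelial to spindle-shaped morphology. None of the 5 was called with limma, beside 0.172% of all probes called lower in carcinoma, and 1 of the 5, miR-206, had an unadjusted p under 0.05. Its deposited values in carcinoma were 10, 15, 9, 13 and 8, of which only the 15 exceeded its limit. In EMT-like areas the lowest was 19, the median 31 and the highest 61, all above the limit.

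Scaled miR-206 averaged 12.9 ± 3.87 (SD, n = 5) for carcinoma against 29.4 ± 11.2 (SD, n = 7) for EMT-like areas, and the highest carcinoma value (17.7) lay under the lowest EMT-like value (18.3). This was the case for 1.03% of all probes in this direction. Carcinoma replicates 1, 3 and 4 were under normalized limits of 22.8, 19.7 and 24.6, which exceed the lowest EMT-like value. These lanes cannot place miR-206 below all EMT-like samples. The difference was -1.09 on the log2 scale (standard error 0.50, unadjusted p = 0.041, adjusted p = 0.338 with limma, 0.0676 to 0.756 over the alternatives), so the difference did not pass over all probes, nor with the animal as a replicate block (-1.09, adjusted p = 0.336 with limma). The ranges also lay apart in the deposited values but overlapped when values were scaled by the 100 most abundant miRNAs, the miRNA total or the 4 mRNA control probes. EMT-like lanes had more signal in general, with a median mouse miRNA value of 6 to 10 against -2 to 5 in carcinoma and 200 to 258 against 150 to 227 miRNAs above the limit, and the part of this in the miR-206 difference was not tested.

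Animals that gave both areas allowed a comparison inside the animal. On the TMM scale, the miR-206 value was higher in the EMT-like area in all 4 of them, the pooled sample included. In the pooled sample the carcinoma value was under a normalized limit of 22.8, which exceeds the EMT-like value of 20.1. That pair is therefore undecided. The log2 differences (carcinoma minus EMT-like) were -0.80, -0.23, -0.70 and -0.70. The pair at -0.23, replicate 2 of both areas, reversed on 2 other scales. Carcinoma held 15.8 against 14.6 by the 100 most abundant miRNAs, and 18.1 against 17.8 by the miRNA total. Tumor animals carry names of 2 kinds in the labels, beginning with letters or made of digits only. On the TMM scale the difference of group means was -0.73 within the lettered and -1.17 within the numbered animals, and ranges did not overlap within either. Both sets held a carcinoma value under a limit that exceeds their lowest EMT-like value. Within the lettered animals they overlapped by the 100 most abundant miRNAs, the miRNA total or the mRNA control probes. Within the numbered animals they overlapped by the 100 most abundant miRNAs (16.1 in carcinoma replicate 4 against 15.2 in EMT-like replicate 4). For miR-133a the log2 fold change was -1.06 (adjusted p = 0.435 with limma), with 4 of 7 EMT-like and 0 of 5 carcinoma samples above the limit.

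Lung metastases fell at the low end for miR-206. The normalized value was 7.72 ± 3.12 (SD, n = 4) against 22.5 ± 12.1 (SD, n = 12) in PT, and the difference of -1.26 on the log2 scale (standard error 0.50) did not pass (adjusted p = 0.203 with limma) but passed when the fit held these groups alone (adjusted p = 0.0227 with limma). None of the 5 was called, beside 2.23% of all probes called lower in metastasis, and miR-206 again was the 1 with an unadjusted p under 0.05 (limma). All 4 metastases (3.82 to 10.3) lay below all 7 EMT-like samples, under each of the 4 scalings and without scaling, and overlapped carcinoma. Metastasis replicates 2 and 3, at 2 and 8 counts, were under the limit. Their normalized limits (34.7 and 22.0) lay inside the EMT-like range (18.3 to 48.3), so these lanes cannot place miR-206 below it. Metastasis and EMT-like ranges lay apart in this direction for 3.95% of all probes. Metastasis minus EMT-like area was -1.47 in the pooled sample, and -2.0, -2.13 and -1.87 in the single animals with both. The -2.0 and -2.13 come from the metastases under the limit. The median mouse miRNA value of the metastasis lanes was 1 to 5, also below the EMT-like lanes, and its part was not tested.

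**Figure D4:**
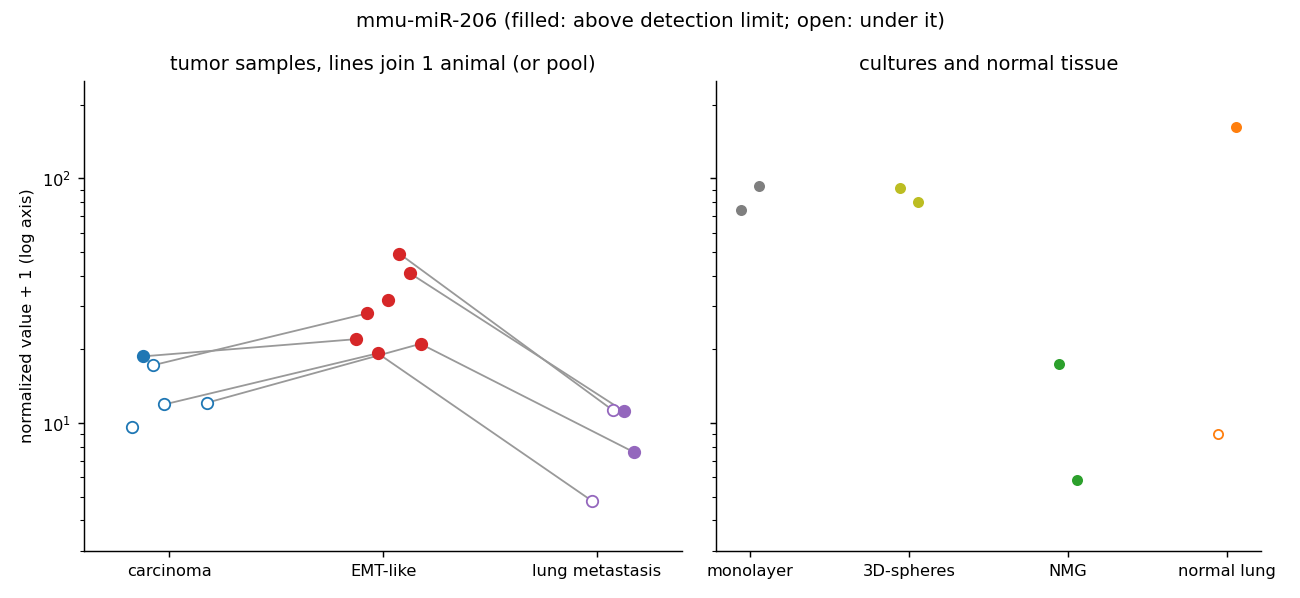
Normalized value + 1 of mmu-miR-206 (log axis) in tumor samples, with lines joining areas of 1 animal or of the pooled sample, and in cultures and normal tissue; open points are under the detection limit. On this TMM scale the 7 EMT-like samples (18.3 to 48.3) lie above the carcinoma samples, which overlap them under 3 other scales, and above the metastasis samples. Metastasis replicates 2 and 3 are under limits of 34.7 and 22.0, and carcinoma replicates 1, 3 and 4 under limits of 22.8, 19.7 and 24.6. The cultures lie at 73.0 to 91.7 and the normal lungs at 8.05 and 161.

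The epithelial list, which includes the miR-200 family that maintains epithelial identity, was set beside miR-206 in these samples. Its summed normalized value was 930 to 5385 in carcinoma (median 2806), 2509 to 4671 in metastasis (median 2784) and 59.4 to 1758 in EMT-like areas (median 396). On the TMM scale, EMT-like replicates 5, 6 and 7, with the lowest sums (111, 59.4 and 116), had the highest miR-206 (30.8, 48.3 and 39.96). The other 4 EMT-like samples had sums of 396 to 1758 and miR-206 of 18.3 to 27.1, and did not follow this order, since replicate 4 had the lowest sum of them and the lowest miR-206 (18.3). Replicates 5, 6 and 7 also had the highest miR-206 by the 100 most abundant miRNAs and by the miRNA total. By the mRNA control probes, however, replicate 5 was the lowest EMT-like sample (14.6) and replicate 2 the highest (42.5), with 28.2 and 29.7 in replicates 6 and 7. The epithelial sums are given on the TMM scale only. The cultures had epithelial sums of 54.5 to 112. This was noticed after the values were seen and was not tested, and replicates 5, 6 and 7 are animals from which no carcinoma area was measured.

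Cultured JygMC(A)-GFP/Luc cells held miR-206 at 47 and 45 counts in the monolayer and 52 and 32 in 3D-spheres, above the limit in all 4, which after scaling were 73.0, 91.7, 90.6 and 79.3. The other muscle miRNAs were under the limit in all cultures, apart from miR-133b at 23 counts in monolayer replicate 2. PT was lower than the monolayer by -2.07 on the log2 scale for miR-206 (standard error 0.65, adjusted p = 0.0238 with limma) and by -3.08 for miR-133b (standard error 1.02, adjusted p = 0.0298 with limma), although only 1 monolayer and 1 of 12 PT samples had miR-133b above the limit. That is 2 of the 5, beside 4.8% of all probes called lower. Neither call held with no scaling, where miR-206 had an adjusted p of 0.369 and miR-133b of 0.162 with limma, or with the mRNA control probes (0.372 and 0.192), and the deposited values of PT for miR-206 (8 to 61) spanned those of the monolayer. With scaling by the 100 most abundant miRNAs (-3.59, adjusted p = 0.00126) or the miRNA total (-2.45, adjusted p = 0.0176), miR-133a was called lower as well (limma). Without monolayer replicate 1 (adjusted p = 0.0904 for miR-206 and 0.063 for miR-133b) or replicate 2 (0.215 and 0.344), with limma, neither passed.

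3D-spheres and monolayer were compared for the effect of growth in suspension. None of the 5 was called with limma and none had an unadjusted p under 0.05, beside 2.92% of all probes called higher and 1.72% called lower in spheres. For miR-206 the log2 fold change was 0.05 with a 95% interval from -1.73 to 1.83, and differences within that interval could not be detected with these 4 cultures. For miR-1 and miR-208a both groups were under the limit.

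By the TMM-scaled level of miR-206, normal lung replicate 2 (161) came first, then the 4 cultures, the EMT-like areas, carcinoma with NMG (4.83 to 17.7 together) and normal lung replicate 1 (8.05), and the metastases, which overlapped both carcinoma and NMG. The order depends on the scale, since the cultures (259 to 578) lay above normal lung replicate 2 (39.0) when the 100 most abundant miRNAs set the scale, and their deposited values (32 to 52) lay inside the EMT-like range (19 to 61). Most carcinoma values, and those of metastasis replicates 2 and 3 and of normal lung replicate 1, were under the limit. Monolayer and 3D-spheres did not differ beyond their spread. For miR-1 the order was normal lung and NMG, which overlapped, with all tumor and culture samples under the limit.

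Other muscle-linked miRNAs were followed by name. mmu-miR-486, which is also abundant in red blood cells, was 358 and 362 counts in NMG and 1947 and 4154 in normal lung, so that the NMG replicates that differed 24.4-fold in miR-1 differed by 1.01-fold. mmu-miR-378, which is also linked to fat, was 1988 and 1681 in NMG and 292 and 1949 in normal lung, and was above the limit in all 24 samples. Of the 4 such miRNAs (miR-208b, miR-499, miR-486 and miR-378), limma called miR-486 and miR-378 lower than in NMG for both kinds of PT area, and 4 lower in lung metastasis against normal lung. The call for miR-499 (-1.64, adjusted p = 0.00741 with limma) was made between values that were all under the limit, and so was the 1 call in spheres against the monolayer, miR-486 (-2.53, adjusted p = 0.0352 with limma). In normal lung against NMG, miR-208b and miR-486 were higher and miR-378 was lower, and the other comparisons gave no call for the 4.

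The miRNAs most like each muscle miRNA were sought among 319 others above the limit in at least 4 samples, by Pearson r of normalized log2 values over the 24 samples, given as a description since the samples share groups and animals. Nearest to miR-1 were mmu-miR-292-3p (r = 0.96), mmu-miR-193 (r = 0.94) and mmu-miR-302b (r = 0.93), each of them above the limit in the 4 normal samples only. Yet miR-292-3p was 34 and 23 counts in NMG, without the gap of miR-1. Nearest to miR-133a were miR-1 (r = 0.75), mmu-miR-338-3p (r = 0.73) and miR-292-3p (r = 0.71). For miR-133b these were mmu-miR-186 (r = 0.58), miR-206 (r = 0.53) and mmu-miR-2138 (r = 0.50), and for miR-206 mmu-miR-883a-5p (r = 0.73), mmu-miR-187 (r = 0.65) and mmu-miR-3473 (r = 0.57).

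The same search was made with group means removed. For deviations from the group means over 24 samples, miR-1 was nearest to miR-292-3p (r = 0.71), miR-133a (r = 0.61) and miR-206 (r = 0.52). miR-133a was nearest to mmu-miR-1963 (r = 0.72), miR-292-3p (r = 0.63) and miR-1 (r = 0.61). miR-133b was nearest to miR-2138 (r = 0.54), mmu-miR-138 (r = 0.53) and mmu-miR-690 (r = 0.51). miR-206 was nearest to miR-292-3p (r = 0.78), mmu-miR-720 (r = 0.72) and mmu-miR-496 (r = 0.70). Without normal lung replicate 2, a choice made after seeing the data, miR-206 was nearest to miR-133a (r = 0.73) by this measure. miR-208a was above the limit in 3 samples and was left out of this search.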

How the data were processed

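Values for 24 samples came from 1 table that the authors deposited, in which each count had the mean of the 6 negative controls of its lane subtracted, so values reach -20 and no count model was used. The authors deposited no scaling between lanes, and the submitters' processing notes name Partek. All other steps were computed here. Values were floored at 0, scaled by TMM (trimming 30% of log ratios and 5% of mean levels, reference carcinoma replicate 2, all 599 miRNA probes) and tested as log2(value + 1) with limma 3.58.1 (lmFit, eBayes with trend, R 4.3.3), 7 groups in 1 fit. Benjamini-Hochberg adjustment covered the 583 probes above 0 in at least 1 sample, and a call means an adjusted p under 0.05. PT is the mean of the carcinoma and EMT-like coefficients. A fold "at least" sets the detection limit of each lane of the lower group against the measured values of the other, on the scale of TMM-normalized value + 1. It was not computed under the other scales. The labels call samples of a group biological replicates. The p-values rest on 1 spread per probe, pooled over the 7 groups and moderated by limma. For miR-1 and miR-208a that spread includes tumor and culture values at or near the floor of 0. It therefore does not measure the spread within NMG or normal lung alone, where the NMG replicates differed by 4.71 for miR-1 on the log2 scale. The animal, culture or shared label number was a replicate block in an alternative (duplicateCorrelation, consensus correlation -0.0051). Alternatives covered scaling, pseudocount, filter, background, samples in the fit and each sample left out. The fit was tested on simulated data. Python 3.11.15 with pandas 2.3.3 and matplotlib 3.10.9 made tables and figures. The miRNAs followed, the marker lists and the comparisons were chosen with earlier results of these data known. The named miRNAs were the 5, 4 other muscle-linked miRNAs and, for each of the 5 above the limit in at least 4 samples, the 3 nearest by Pearson r.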

Additional observations from a re-analysis of the deposited data

Results flagged for a closer look

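mmu-miR-133b in carcinoma replicate 2 stood apart from the rest of its group, with a normalized value of 17.7 (15 counts, above its limit of 9.38), whereas the other 4 carcinoma samples lay between 0 and 2.73, all under their limits. The EMT-like area of the same animal held -3 counts. On the normalized values, which are floored at 0, the gap to the next sample exceeded Dixon's critical value for 5 samples. On the deposited counts (2, 15, -4, -2 and 2) it did not. Of 7 sets examined on normalized values, each 1 of the 5 miRNAs in 1 of the tumor groups with at least 1 sample above the limit, this was the only one flagged. Chance flags about 1 in 20 where values are normally distributed, which values floored at 0 are not.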

How the results depend on the processing

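Of 282 recomputed log2 fold changes, 247 kept their direction and side of the threshold, 24 kept the direction and lost the call, 3 gained it and 8 changed sign. The number of the 5 miRNAs called in lung metastasis against normal lung (4) was 2 after scaling to the miRNA total or to the 100 most abundant miRNAs, and 2 to 4 with samples left out. In normal lung against NMG (1) it was 4 with the mRNA control probes, 2 with a higher background (mean plus 2 SD of these controls) subtracted, and 1 to 3 with samples left out. In lung metastasis against PT (0) it was 1 with only the groups compared, and 0 with any sample left out. In PT against the monolayer (2) it was 0 with no scaling, with the mRNA control probes and with the higher background, 1 with only the groups compared, and 0 to 2 with samples left out, which leaves a lone monolayer sample assumed to vary like the others. Sign changes were those of miR-208a against NMG with the higher background (0.054 for carcinoma and for EMT-like areas) and of miR-206 in spheres against the monolayer, with -0.17 without scaling, -0.044 with the 100 most abundant miRNAs, -0.21 with the miRNA total, -0.046 with the higher background and -0.11 to 0.21 with samples left out. The causes were not tested, beyond the floor that puts every value near background at the same level. The replicate block changed no call, and miR-206 in carcinoma against EMT-like areas stayed at -1.09. Values near the limit of 4 to 21.4 counts, which hold most tumor values of these miRNAs, carry little precision.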
